A study of Mus musculus with 6 samples.

Results

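The organic ion and ABC transporters of AML12 hepatocytes are described here, in cells that over-expressed Zac1 and in cells that over-expressed EGFP. The genes were taken by symbol: the Slco family of organic anion transporting polypeptides, the Slc22a family of organic anion, cation and carnitine carriers, both Slc47a proton antiporters, and the Abca to Abcg families of ATP-binding cassette proteins. Slc22a18, an imprinted gene, was left out by that rule. The rule took 90 of the 49585 genes in the count table. Of these, 22 had 0 reads in every library, 30 had reads but a mean below 10 per library, and 38 could be tested.

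AML12 is an immortalised mouse hepatocyte line, derived from a mouse that carried a transgene for human TGF-alpha, and all samples come from it. Zac1 cells carried a construct with the open reading frame of Zac1, the product of the imprinted gene Plagl1 and a DNA-binding regulator with zinc fingers. EGFP cells, the controls, carried a construct with the open reading frame of EGFP, a fluorescent protein. PolyA RNA was sequenced 24 h after transfection, in 3 Zac1 libraries (replicates 4, 5 and 6) and 3 EGFP libraries (replicates 1, 2 and 3). The sources used here give neither the promoter of the constructs nor the share of cells transfected.

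A hepatocyte takes organic ions from the blood through carriers in its sinusoidal membrane and passes them, often after conjugation, to bile through ATP-driven pumps in its canalicular membrane. Slco and Slc22a proteins are the main uptake carriers. Abcb and Abcc pumps and Abcg2 export drugs, conjugates and bile salts, and Abca proteins and other Abcg proteins move lipids. Abcd proteins other than Abcd4 carry fatty acids into peroxisomes. Several Abcb members work in mitochondria, and Abce and Abcf proteins act on ribosomes and are not transporters despite their name. The rule took them by symbol, and they are counted among the transporter genes throughout.

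Library totals ran from 16104498 to 18302538 reads in Zac1 and from 14801240 to 15145092 in EGFP. Plagl1 had 106033 to 148382 reads in Zac1 libraries and 39 to 79 in EGFP libraries. Its reads cannot be assigned to the construct or to the cells' own gene. The second principal component (15.5% of the variance) set Zac1 4 and EGFP 1 apart from the other 4 libraries. Of 10 hepatocyte markers, 7 could be tested, of which 1 rose and Ttr fell while Alb, Apob and Hnf4a did not pass. Their summed level was 1460 to 1730 CPM (reads scaled to library size) in Zac1 and 1600 to 1850 CPM in EGFP. Most of it came from Apob, with means of 1270 CPM in Zac1 and 1354 CPM in EGFP. Alb averaged 34.7 CPM in Zac1 and 34.6 CPM in EGFP. Apoa1 (1.03 CPM in Zac1, 0.938 CPM in EGFP) and Afp (1.16 and 1.54 CPM) were low and did not pass either. Trf, Cps1 and Asgr1, which mature hepatocytes express strongly, were below the count minimum. Cholangiocyte markers summed to 389 to 413 CPM in Zac1 and 368 to 406 CPM in EGFP, mostly from Krt19 and Sox9. Macrophage markers summed to 45.7 to 52 CPM in Zac1 and 49.7 to 54 CPM in EGFP, nearly all from Cd14. The macrophage marker Csf1r, below the count minimum, had 7, 4 and 19 reads in Zac1 and 0 in every EGFP library. Stellate cell and fibroblast markers were near 0, at 2.18 to 2.72 CPM in Zac1 and 0.466 to 1.01 CPM in EGFP, with Col1a1 higher in Zac1 and Lrat at 0. Endothelial markers were at 0.684 to 1.09 CPM in Zac1 and 0.472 to 0.799 CPM in EGFP. The part of these marker levels in the results on transporters was not tested.

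Of the 38 tested transporter genes, 1 rose and 2 fell with Zac1. Slco1a6, an organic anion carrier, and Abcc2, the canalicular pump for conjugated anions (also called MRP2), were lower. Abcb1b, a P-glycoprotein that exports drugs, was higher. These 3 genes passed edgeR's quasi-likelihood test with Benjamini-Hochberg adjustment over all 12130 tested genes at 0.05. Across all tested genes 3.78% passed in either direction, 3.12% as higher and 0.668% as lower. Among the transporters the shares were 7.89%, 2.63% and 5.26%, and each rests on at most 3 genes. The labels do not say whether replicates are separate cultures. The p-values therefore reflect spread between libraries that may be technical. In bulk RNA, fewer cells expressing a gene and less RNA per cell cannot be told apart.

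The promoters of the 3 changed genes are shown because these genes are the ones on which the comparison turns. Each is the RefSeq window (GRCm38.p6) of 250 bases before to 50 bases after a transcription start, written 5′ to 3′ on the gene's strand. Capitals mark matches, on either strand, to 1 of 5 motifs: GGGGCCCC (a core of the site known for ZAC1), AGGTCA (nuclear receptor half-site), TGACNNNGC (antioxidant response element), CCAAT (the box bound by NF-Y) and TATAAA (a core promoter element).
Slco1a6, chr6:142186100-142186399, minus strand: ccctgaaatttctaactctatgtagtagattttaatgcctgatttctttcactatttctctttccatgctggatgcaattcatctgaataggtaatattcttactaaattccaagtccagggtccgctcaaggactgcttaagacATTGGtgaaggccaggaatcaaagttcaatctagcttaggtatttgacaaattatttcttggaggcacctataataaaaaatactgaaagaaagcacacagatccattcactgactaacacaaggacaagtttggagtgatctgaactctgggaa
Abcc2, chr19:43782058-43782357, plus strand: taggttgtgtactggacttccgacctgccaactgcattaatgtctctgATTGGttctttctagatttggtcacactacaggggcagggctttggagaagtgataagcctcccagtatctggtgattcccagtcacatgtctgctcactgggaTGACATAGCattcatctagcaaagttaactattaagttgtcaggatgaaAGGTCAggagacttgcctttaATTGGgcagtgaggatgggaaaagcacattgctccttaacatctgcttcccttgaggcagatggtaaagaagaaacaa
Abcb1b, chr5:8797897-8798196, plus strand: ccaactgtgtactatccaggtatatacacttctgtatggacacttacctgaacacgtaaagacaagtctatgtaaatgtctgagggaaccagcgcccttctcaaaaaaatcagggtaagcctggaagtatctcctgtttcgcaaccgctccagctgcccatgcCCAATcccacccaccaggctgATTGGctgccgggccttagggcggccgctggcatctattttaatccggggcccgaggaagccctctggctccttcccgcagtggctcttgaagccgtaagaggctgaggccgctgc
The Slco1a6 window lies inside the longer gene that GENCODE M21 annotates there. It held 1 CCAAT box in reverse orientation. The Abcc2 window held 2 CCAAT boxes in reverse orientation, 1 antioxidant response element and 1 nuclear receptor half-site. The Abcb1b window held 1 CCAAT box in each orientation. Among the 36 windows of tested transporter genes (30 genes with an entry), 9 held a CCAAT box (25.0%), 8 an antioxidant response element (22.2%) and 7 a nuclear receptor half-site (19.4%). Over all 32841 windows of the same length the shares were 37.4%, 12.4% and 16.3%. The core element TATAAA stood in 5 of the 36 windows (13.9%), against 13.6% of all. GGGGCCCC was found in 0 of the 36, against 1.08% of all windows. These are matches of letters and say nothing of binding.

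Among the Slco uptake carriers, Slco1a6 (ENSMUSG00000079262; GRCm38 chromosome 6, 142085761 to 142208521, minus strand) was the 1 that changed. It was read 42, 32 and 47 times in Zac1 libraries 4, 5 and 6 and 66, 64 and 66 times in EGFP libraries 1, 2 and 3. Its level was 2.61, 1.88 and 2.55 CPM in Zac1 and 4.39, 4.29 and 4.46 CPM in EGFP. The groups did not overlap, and the EGFP libraries lay close together while Zac1 5 was the lowest of all. At 64 to 66 reads, counting error alone is larger than the spread between the EGFP libraries. Their SD therefore understates the uncertainty of the EGFP level. The means were 2.35 ± 0.409 CPM in Zac1 and 4.38 ± 0.081 CPM in EGFP (SD, n = 3 each), 0.537 times the EGFP level (95% interval 0.406 to 0.711). The log2 fold change was -0.90 (SE 0.19, edgeR adjusted p = 0.0151). The call ended without EGFP 3 (edgeR adjusted p = 0.0705) or Zac1 5 (0.107). Slco1a6 is a kidney-type carrier in the mouse, and per length it was low here, ranked 31 of the 38 tested genes at 0.834 ± 0.145 CPM per kb in Zac1 and 1.56 ± 0.0288 CPM per kb in EGFP. Of the 50-base windows of its longest transcript, 5.6% also occur in other genes, most in Gm6614, Slco1a5 and Gm5724. Gm6614 and Gm5724 had 0 reads in every library.

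**Figure D1:**
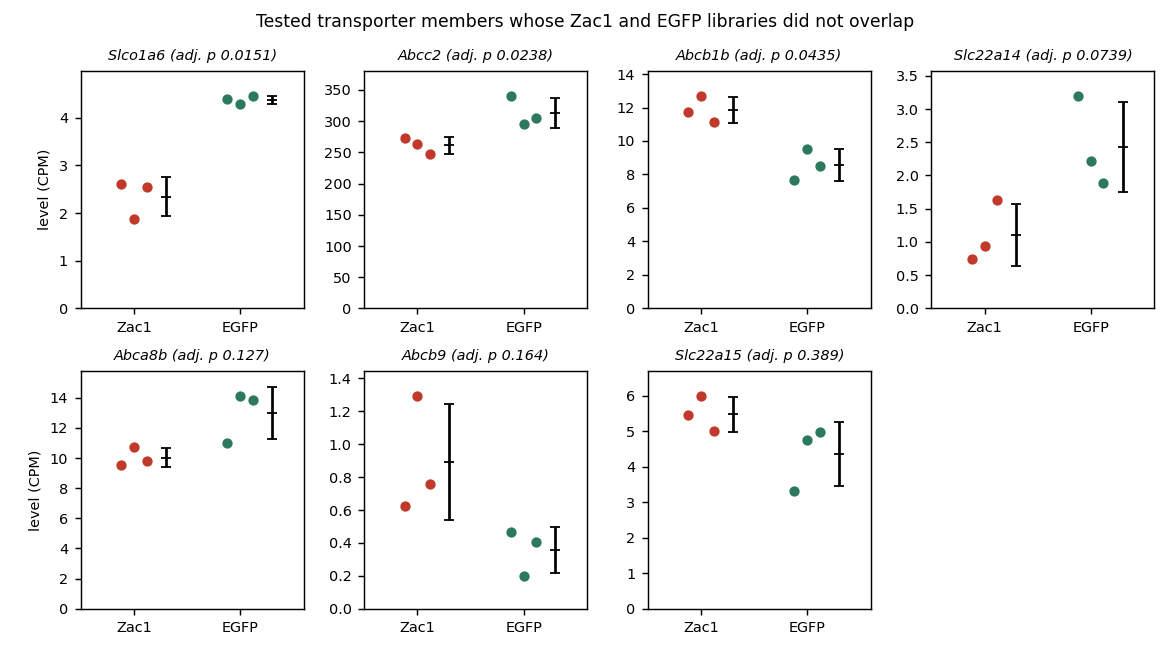
Levels (linear axis, CPM) of the 7 tested transporter genes whose Zac1 (left, red) and EGFP (right, green) libraries did not overlap. Points are libraries, the black bar beside them is the mean ± SD (n = 3), and titles give edgeR's adjusted p. Slco1a6, Abcc2, Slc22a14 and Abca8b lie lower in Zac1, and Abcb1b, Abcb9 and Slc22a15 higher.

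Slco1a6 sits in a cluster on chromosome 6 with Slco1c1, Slco1b2, Slco1a4, Slco1a1, Slco1a5 and the ABC gene Abcc9. Its neighbours were nearly silent. Slco1a1 and Slco1a4, the main liver carriers of this subfamily in the mouse, had 0 reads in every library, as did Abcc9. Slco1b2, the liver carrier for bilirubin and statins in the mouse, and Slco1c1, a thyroxine carrier, had 1 read each, both in Zac1 libraries. Slco1a5 had 0 reads in all Zac1 libraries and 3, 4 and 1 in EGFP libraries 1, 2 and 3. With 3 counts over the group in place of the 0, the EGFP level was 3.07 times that of Zac1. That ratio takes the 8 EGFP reads as exact, so it is not a lower bound on the difference. Slco1a5 did not pass when genes of any count were tested (edgeR adjusted p = 0.128).

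The other Slco genes with a measurable level are not liver-type carriers. Slco2a1, the prostaglandin transporter, had 472, 481 and 492 CPM in Zac1 and 476, 501 and 475 CPM in EGFP. The groups overlapped, and the log2 fold change was -0.01 with a 95% interval of -0.11 to 0.09. Slco3a1, a broadly expressed carrier, averaged 221 ± 2.29 CPM in Zac1 and 224 ± 8.26 CPM in EGFP (log2 fold change -0.02, interval -0.13 to 0.09). Both intervals lie within 1.5-fold of no change. Slco2b1, Slco4c1, Slco6b1 and Slco6c1 had 0 to 2 reads in either group, while Slco4a1 had 8 reads in Zac1 and 5 in EGFP, and Slco5a1 had 11 in Zac1 and 4 in EGFP. Together, 3 of the 14 Slco genes were tested, 0 were higher and 1 was lower, against 3.12% higher and 0.668% lower of all tested genes.

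No Slc22a or Slc47a gene passed the test, against 3.78% of all tested genes. With 6 genes tested this is a description only. Of 26 genes, 12 had 0 reads in every library, 8 were below the count minimum and 6 were tested. Among those at 0 were the liver anion carrier Slc22a7, the kidney anion carriers Slc22a6 and Slc22a8, the cation carriers Slc22a2 and Slc22a3, and Slc47a1, the antiporter that passes cations to bile. Slc47a2, a relative of Slc47a1, had 3 reads in Zac1 and 0 in EGFP. Also at 0 in every library were Slc22a13, Slc22a16, Slc22a19, Slc22a26, Slc22a28 and Slc22a29. Slc22a12, the kidney urate carrier, Slc22a17, Slc22a20, Slc22a22 and Slc22a30 had 0 to 4 reads in either group. At an unadjusted p under 0.05, 2 of the 6 passed (edgeR), against 15.8% of all tested genes.

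Slc22a14, described as a riboflavin carrier of mouse sperm, had a log2 fold change below -1 and did not pass the test. It was read 12, 16 and 30 times in Zac1 libraries 4, 5 and 6 and 48, 33 and 28 times in EGFP libraries 1, 2 and 3. The groups did not overlap in CPM, with 0.747, 0.939 and 1.63 CPM in Zac1 and 3.19, 2.21 and 1.89 CPM in EGFP. Zac1 6 lay near EGFP 3. The log2 fold change was -1.11 (SE 0.32, edgeR adjusted p = 0.0739). With 1 library left out it passed in 1 of 6 fits, without Zac1 6 (-1.52, edgeR adjusted p = 0.0444). In the other fits the edgeR adjusted p rose to as much as 0.280.

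The carnitine carriers of this family lie next to each other on chromosome 11, in the order Slc22a5, Slc22a21 and Slc22a4. Slc22a5, the high-affinity carnitine carrier, had 15.6, 19.0 and 17.6 CPM in Zac1 and 16.0, 12.9 and 14.3 CPM in EGFP. Zac1 4 fell among the EGFP libraries, and the log2 fold change was 0.27 (interval 0.04 to 0.51, edgeR adjusted p = 0.236). Slc22a4, a carrier of ergothioneine, averaged 8.01 ± 0.901 CPM in Zac1 and 8.11 ± 1.16 CPM in EGFP (-0.02, interval -0.32 to 0.29). Slc22a21 had 18 reads in Zac1 and 8 in EGFP, a ratio of 1.96 (exact 95% interval 0.809 to 5.2). Of the 50-base windows of Slc22a5, 27.1% occur in other genes, most in Slc22a21, so the division of reads between these genes is uncertain.

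Slc22a23, a carrier with no settled substrate, was the most abundant of the family at 146 ± 4.46 CPM in Zac1 and 154.5 ± 9.14 CPM in EGFP, with a log2 fold change of -0.08 (interval -0.20 to 0.04). Slc22a15 had 5.48, 5.99 and 5.0 CPM in Zac1 and 3.33, 4.76 and 4.99 CPM in EGFP. The groups only just parted, and the log2 fold change was 0.33 (SE 0.18, edgeR adjusted p = 0.389). Slc22a27 averaged 0.581 ± 0.167 CPM in Zac1 and 0.805 ± 0.339 CPM in EGFP (-0.46, interval -1.36 to 0.43). It shares 30.5% of its 50-base windows with genes of the same cluster on chromosome 19, where 8 Slc22a genes lie together.

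Of the pumps of the canalicular membrane, Abcc2 fell, Abcb1b rose and Abcg2 did not pass the test. Abcc2 (ENSMUSG00000025194; GRCm38 chromosome 19, 43782192 to 43840740, plus strand) exports bilirubin glucuronides and glutathione conjugates. It had 273, 263 and 247 CPM in Zac1 libraries 4, 5 and 6 and 340, 295 and 305 CPM in EGFP libraries 1, 2 and 3. The groups did not overlap, and EGFP 1 stood above the other EGFP libraries. The means were 261 ± 12.8 CPM in Zac1 and 313 ± 23.6 CPM in EGFP, 0.833 times the EGFP level (95% interval 0.762 to 0.911). The log2 fold change was -0.26 (SE 0.06, edgeR adjusted p = 0.0238). It was -0.20 without EGFP 1 and the call ended (adjusted p = 0.0699), as it did without EGFP 3 (0.083), Zac1 5 (0.121) or Zac1 6 (0.142) and with no trend in the dispersion (0.0644). In depth Abcc2 is well covered, with 4381 to 4549 reads per Zac1 library and 4399 to 5111 per EGFP library.

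Abcb1b (ENSMUSG00000028970; GRCm38 chromosome 5, 8798147 to 8866315, plus strand) and its neighbour Abcb1a encode the mouse P-glycoproteins. Abcb1b was read 189, 216 and 205 times in Zac1 libraries 4, 5 and 6 and 115, 142 and 126 times in EGFP libraries 1, 2 and 3. Its level was 11.8, 12.7 and 11.1 CPM in Zac1 and 7.65, 9.53 and 8.504 CPM in EGFP, with every Zac1 library above every EGFP library. The log2 fold change was 0.47 (SE 0.12, edgeR adjusted p = 0.0435), a 1.38-fold higher level (95% interval 1.16 to 1.65). The adjusted p is close to the threshold. The call ended without EGFP 1 (0.119), EGFP 3 (0.171), Zac1 5 (0.225) or Zac1 6 (0.0901), among genes averaging at least 50 reads (0.0663) and with DESeq2 (0.0657). Abcb1a had 34.5, 38.2 and 37.5 CPM in Zac1 and 31.9, 33.4 and 36.0 CPM in EGFP, with overlapping groups. Its log2 fold change was 0.12 (interval -0.04 to 0.28, edgeR adjusted p = 0.46). The difference between the fold changes of the 2 genes was not tested. Abcb1a and Abcb1b share 17% and 18.3% of their 50-base windows with other genes, most with each other, and the division of reads between them is therefore uncertain.

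The third gene of that cluster, Abcb4, passes phosphatidylcholine into bile. It had 9, 6 and 3 reads in Zac1 and 0, 0 and 3 in EGFP, a ratio of summed counts of 5.21 (exact 95% interval 1.52 to 27.6, counting error only). It did not pass when genes of any count were tested (edgeR adjusted p = 0.203). Abcb11, the bile salt export pump of hepatocytes, had 16 reads in Zac1 and 19 in EGFP, a ratio of 0.732 (0.352 to 1.5). The sterol pumps Abcg5 and Abcg8, which act as a pair, had 1 to 2 reads in either group. Abcg2, a broad drug and urate exporter, averaged 110 ± 7.99 CPM in Zac1 and 119 ± 4.59 CPM in EGFP, with overlapping groups (log2 fold change -0.12, interval -0.25 to 0.02, edgeR adjusted p = 0.389).

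**Figure D2:**
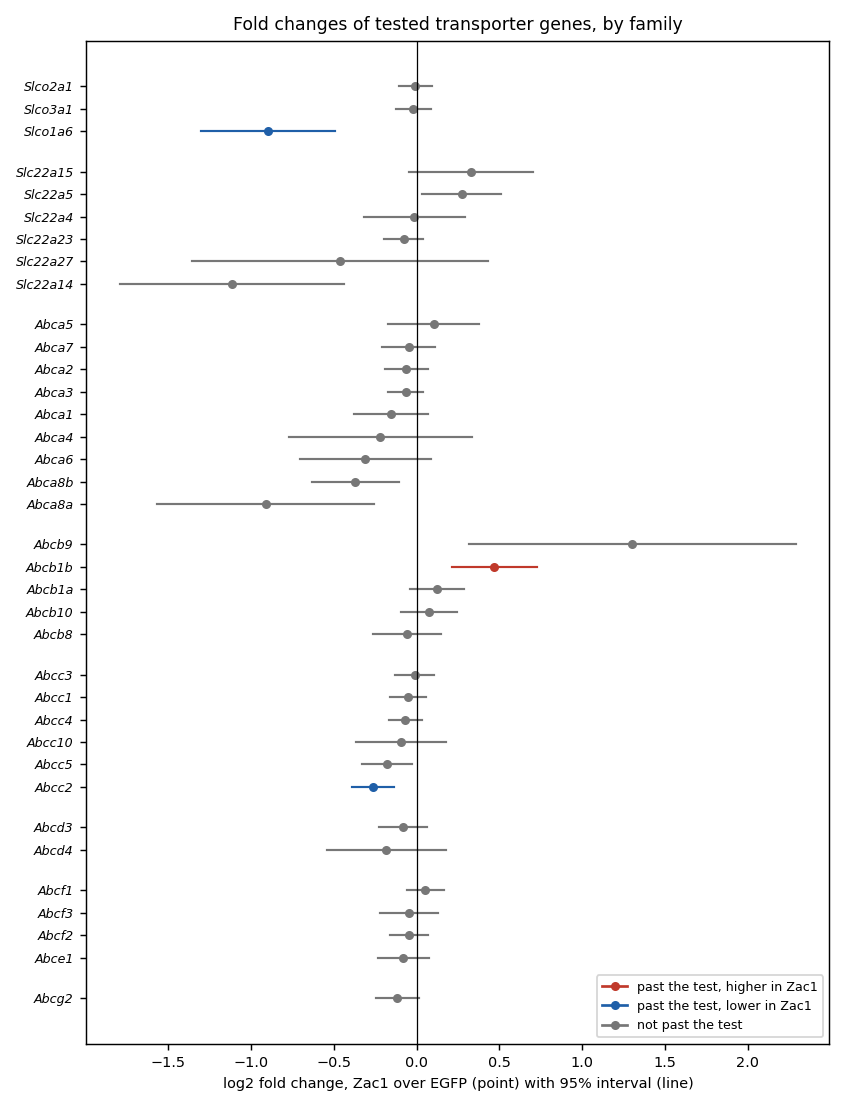
Log2 fold change (Zac1 over EGFP, horizontal axis) of tested transporter genes, grouped by family, with the 95% interval of edgeR's fit as a line. Abcb1b (red) lies right of 0 and Slco1a6 and Abcc2 (blue) left of 0 past the test. Genes in grey did not pass.

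The other Abcc pumps differed little. Abcc4, which exports bile salts and cyclic nucleotides across the sinusoidal membrane, had the highest level per length of all tested transporters, at 95.6 ± 1.71 CPM per kb in Zac1 and 100.1 ± 3.34 CPM per kb in EGFP. Its log2 fold change was -0.07 (interval -0.17 to 0.03). Abcc3, another sinusoidal exporter of conjugates, averaged 213 ± 9.99 CPM in Zac1 and 215 ± 10.9 CPM in EGFP (-0.01, interval -0.13 to 0.11). Abcc1, a glutathione conjugate pump, averaged 155 ± 4.49 CPM in Zac1 and 160 ± 3.49 CPM in EGFP (-0.05, interval -0.16 to 0.06). Abcc5, which exports nucleotide analogues, had 80.9, 70.5 and 72.5 CPM in Zac1 and 91.6, 79.8 and 81.7 CPM in EGFP. Its groups overlapped through Zac1 4 and EGFP 2. The log2 fold change was -0.18 (edgeR adjusted p = 0.223). With 1 library left out it passed in 1 of 6 fits, without Zac1 4 (-0.24, edgeR adjusted p = 0.0373). In the other fits the edgeR adjusted p rose to as much as 0.641. Abcc10 was at -0.09 (interval -0.36 to 0.18). Abcc6, the hepatic ATP release protein, had 20 reads in Zac1 and 22 in EGFP, and Abcc8, the sulfonylurea receptor of potassium channels, had 14 in Zac1 and 11 in EGFP. Abcc12 had 17 in Zac1 and 13 in EGFP. All 6 tested Abcc genes had a fold change below 0, against 50.5% of all tested genes, and 1 passed as lower, against 0.668% of all. With 6 genes these shares are a description only.

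None of the 9 tested Abca genes passed, against 3.78% of all tested genes. Fold changes were below 0 for 8 of the 9, against 50.5% of all, with a median of -0.15, against -0.002 for all. Per length the most abundant were Abca3, a lipid carrier of lamellar bodies, Abca2 and Abca7. Abca3 averaged 35.1 ± 0.888 CPM per kb in Zac1 and 36.7 ± 0.916 CPM per kb in EGFP (log2 fold change -0.07, interval -0.17 to 0.04). The Zac1 and EGFP libraries of Abca3 overlapped. Abca2 was at -0.06 (interval -0.19 to 0.07) and Abca7 at -0.05 (interval -0.21 to 0.11). Abca4, the retinoid carrier of photoreceptors, was near the bottom of the order of levels and at -0.22 (interval -0.77 to 0.33). Abca1, which loads cholesterol onto apolipoprotein A-I, had 14.9, 17.1 and 13.9 CPM in Zac1 and 16.2, 17.9 and 17.1 CPM in EGFP. Its groups overlapped through Zac1 5 (log2 fold change -0.15, interval -0.38 to 0.07, edgeR adjusted p = 0.506). Abca15 and Abca16 had 0 reads in every library. Abca12, a lipid carrier of skin, Abca13, Abca14 and Abca17 had 1 to 12 reads in Zac1 and 0 to 9 in EGFP.

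A cluster on chromosome 11 (109932190 to 110337716) holds, in order, Abca8b, Abca8a, Abca9, Abca6 and Abca5, all on the minus strand. Abca8b had 9.52, 10.7 and 9.84 CPM in Zac1 and 11.0, 14.1 and 13.8 CPM in EGFP, with every Zac1 library below every EGFP library. Its log2 fold change was -0.37 (SE 0.12, edgeR adjusted p = 0.127). Abca8a had 1.99, 0.998 and 1.41 CPM in Zac1 and 1.80, 3.62 and 2.84 CPM in EGFP, and Zac1 4 and EGFP 1 overlapped (-0.91, SE 0.31, edgeR adjusted p = 0.135). Both were past the threshold without EGFP 1 (edgeR adjusted p = 0.0355 for Abca8b and 0.0334 for Abca8a), and Abca8a also without Zac1 4 (0.0323). With 1 library left out, Abca8b thus passed in 1 of 6 fits and Abca8a in 2 of 6. In the other fits the edgeR adjusted p rose to as much as 0.402 for Abca8b and 0.466 for Abca8a. Abca6 averaged 5.12 ± 0.399 CPM in Zac1 and 6.35 ± 1.73 CPM in EGFP (-0.31, interval -0.71 to 0.09). Abca5 was at 0.10 (interval -0.17 to 0.38). Abca9 had 3, 1 and 0 reads in Zac1 libraries 4, 5 and 6 and 0 in every EGFP library. Abca9 did not pass when genes of any count were tested (edgeR adjusted p = 0.513).

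Among the Abcb half-transporters of mitochondria, Abcb8 was at -0.06 (interval -0.26 to 0.15) and Abcb10, which serves haem synthesis, at 0.07 (interval -0.09 to 0.24). Abcb9, a lysosomal peptide carrier, was read 10, 22 and 14 times in Zac1 libraries 4, 5 and 6 and 7, 3 and 6 times in EGFP libraries 1, 2 and 3. The groups did not overlap, and the log2 fold change of 1.30 (SE 0.46, edgeR adjusted p = 0.164) was the largest positive value among the transporters tested. Its mean count was just above the minimum of 10. Abcb5, a drug pump known from skin tumours, had 1 read in each group. Abcb6, a haem and porphyrin carrier, had 0 reads in every library. Its exons overlap the annotated transcript Gm29253 on the same strand over 55.2% of their length, and that gene also had 0 reads in every library. How the authors' counting treated such overlaps is not stated, so the 0 cannot be read as absence of expression.

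The peroxisomal fatty acid carrier Abcd3 and the vitamin B12 carrier Abcd4 did not pass. Abcd3 averaged 102 ± 9.68 CPM in Zac1 and 108 ± 4.73 CPM in EGFP (log2 fold change -0.08, interval -0.23 to 0.06). Abcd4 was at -0.18 (interval -0.54 to 0.18). Abcd2 had 0 reads in every library. The ribosome recycling factor Abce1 averaged 352 ± 32.1 CPM in Zac1 and 372 ± 34.5 CPM in EGFP (-0.08, interval -0.24 to 0.08). The translation factors Abcf1, Abcf2 and Abcf3 were at 0.05, -0.05 and -0.04. Of the 4 Abce and Abcf genes 0 passed, against 3.78% of all tested genes, which with 4 genes is a description only.

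Abcg4, a sterol carrier known mainly from brain, was too low to test, with a mean count of 7.5. It had 11, 15 and 16 reads in Zac1 and 2, 0 and 1 in EGFP, with every Zac1 library above every EGFP library. The ratio of summed counts was 12.2 (exact 95% interval 3.89 to 61.3, counting error only). When genes of any count were tested it passed as higher (edgeR adjusted p = 0.000153), in a fit that gave all genes 1 common trend of spread. Abcg1, the cholesterol exporter to HDL, and Abcg3 had 0 reads in every library. Abcg4 is named here after its values were seen.

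**Figure D3:**
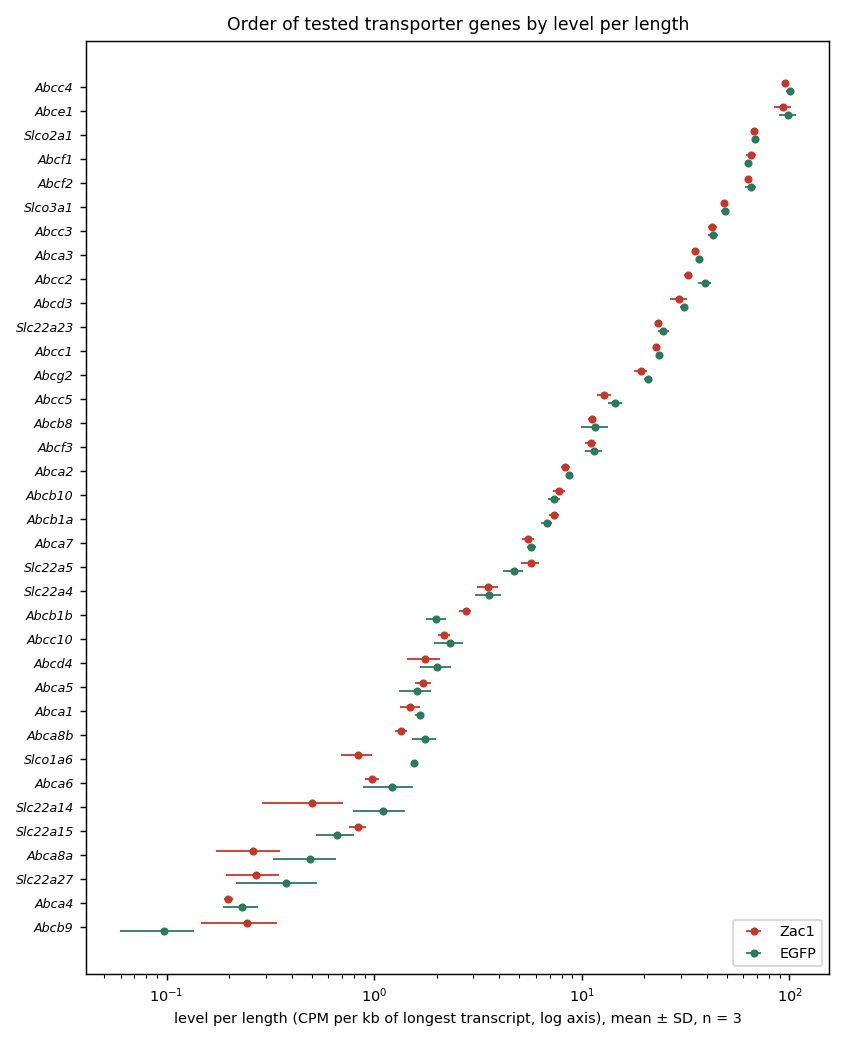
Level per length of tested transporter genes in CPM per kb of the longest GENCODE M21 transcript (horizontal, log axis), as mean ± SD (n = 3) in Zac1 (red, upper) and EGFP (green, lower). The order runs from Abcc4 and Abce1 at the top to Abcb9 at the bottom. Abcc2, Slco1a6 and several genes at the low end show means further apart than their SDs. For genes with few reads an SD of n = 3 can understate the uncertainty.

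Per length, the order of levels was led by Abcc4, Abce1, Slco2a1, Abcf1, Abcf2, Slco3a1, Abcc3, Abca3 and Abcc2. Abce1 had 92.8 ± 8.45 CPM per kb in Zac1 and 98.0 ± 9.08 CPM per kb in EGFP, so it and Abcc4 did not differ beyond their spread. Slco2a1, with 67.6 ± 1.42 CPM per kb in Zac1 and 67.9 ± 2.04 CPM per kb in EGFP, lay below both. Abcf1 and Abcf2 were alike at 65.5 ± 3.58 and 63.1 ± 0.66 CPM per kb in Zac1 and 63.1 ± 1.51 and 65.2 ± 3.84 CPM per kb in EGFP. The 14 genes with at least 100 CPM in both groups had log2 fold changes from -0.26 to 0.05, 13 of them below 0. Of all 38 tested genes, 28 had an interval within 1.5-fold of no change in either direction.

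Over the 38 tested genes the median log2 fold change was -0.06, against -0.002 for all 12130 tested genes. Fold changes were below 0 for 29 of the 38 (76.3%) and for 50.5% of all tested genes. The Zac1 and EGFP libraries did not overlap for 7 of the 38 (18.4%), against 20.6% of all tested genes. The Zac1 libraries were all above EGFP for 3 of them (7.89%, against 11.9%) and all below for 4 (10.5%, against 8.75%). At an unadjusted p under 0.05 in edgeR, 9 passed (23.7%, against 15.8%). All genes taken by the rule together held 3823, 3787 and 3747 CPM in Zac1 libraries 4, 5 and 6. In EGFP libraries 1, 2 and 3 they held 4046, 3895 and 3909 CPM. Of this, Abce and Abcf genes, which are not transporters, held 755 CPM in Zac1 and 773.8 CPM in EGFP on average. Without Abcc2 the sums were 3550, 3524 and 3500 CPM in Zac1 and 3705, 3600 and 3604 CPM in EGFP, so all Zac1 libraries stayed below all EGFP libraries. These sums are descriptions of genes chosen with results known and were not tested.

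**Figure D4:**
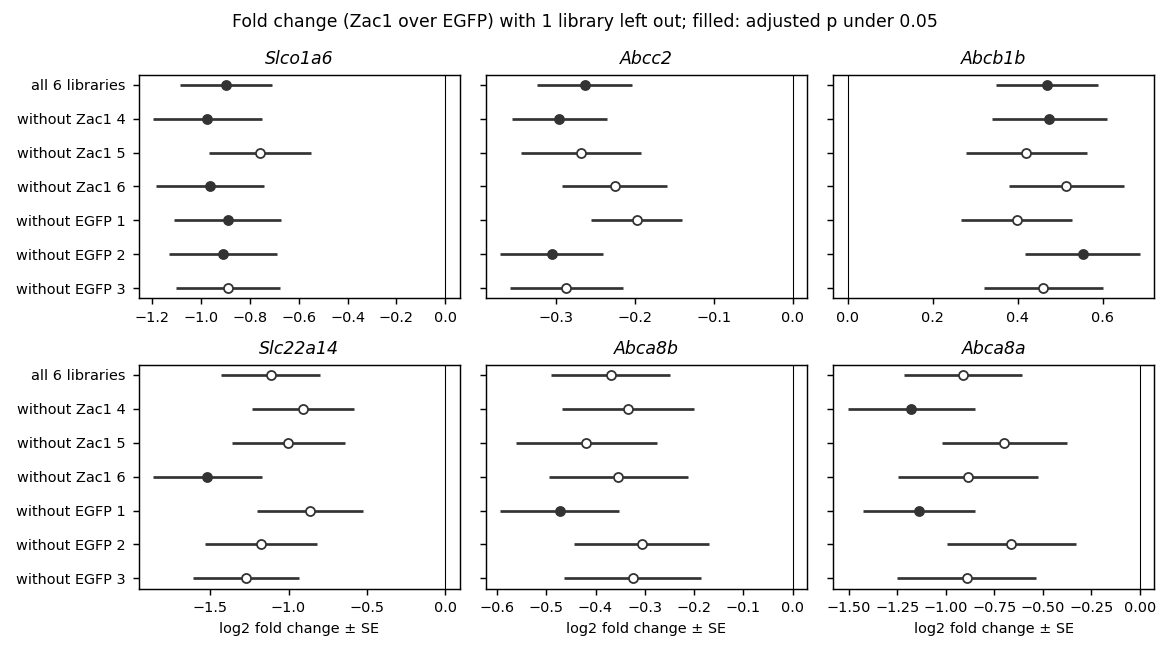
Log2 fold change ± SE (Zac1 over EGFP) of 6 transporter genes with all 6 libraries (top row of each panel) and with 1 library left out. Filled points have an edgeR adjusted p under 0.05, open points do not. The sign held in every fit shown, while the call of Abcc2 and of Abcb1b held in 2 of 6 fits and that of Slco1a6 in 4 of 6.

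Among 26 tested transcription regulators of transporter genes, 1 rose and 0 fell, against 3.12% higher and 0.668% lower of all tested genes. The median of these regulators was 0.02. Nfe2l2, which encodes NRF2, an activator of Abcc2, Abcc3 and Abcc4, was at -0.08 (SE 0.05, edgeR adjusted p = 0.413), and Nr1h4, the bile acid receptor FXR, at -0.06 (SE 0.06, edgeR adjusted p = 0.701). The drug receptor Nr1i2 had 1.73 ± 0.124 CPM in Zac1 and 1.79 ± 0.386 CPM in EGFP. Its relative Nr1i3 had 2 reads in Zac1 and 0 in EGFP.

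Of 13 tested carriers and channels outside these families, 0 passed, against 3.78% of all tested genes. The smallest p was that of the folate carrier Slc19a1 (log2 fold change 0.21, edgeR adjusted p = 0.189). It was the 1 carrier of the list with an unadjusted p under 0.05 in edgeR, against 15.8% of all tested genes. Slc10a1, the main bile salt uptake carrier of hepatocytes, had 0 reads in every library, while Slc10a2, the ileal and cholangiocyte bile salt carrier, averaged 11.2 ± 2.13 CPM in Zac1 and 13.5 ± 1.73 CPM in EGFP. Of 20 tested partners and adaptors of transporters 0 passed the test, against 3.78% of all tested genes. In edgeR 2 of them had an unadjusted p under 0.05, against 15.8% of all. The smallest p was that of Slc9a3r2, a scaffold protein (log2 fold change 0.30, edgeR adjusted p = 0.0844). Of 9 tested genes of bile acid synthesis and its control, 0 rose and 1 fell, against 3.12% and 0.668% of all tested genes. The gene that fell was Klb, a co-receptor for FGF hormones. It had 10.1 ± 0.537 CPM in Zac1 and 15.4 ± 1.64 CPM in EGFP (log2 fold change -0.61, edgeR adjusted p = 0.00598). Cyp39a1 had an unadjusted p under 0.05 in edgeR and did not pass (log2 fold change -0.18, edgeR adjusted p = 0.228). Cyp7a1, the rate-limiting enzyme of bile acid synthesis, had 0 reads in Zac1 and 1 in EGFP.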

How the data were processed

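PolyA RNA of AML12 cells was sequenced in 3 Zac1 and 3 EGFP libraries. The deposited data are a single table of gene-level read counts with a column for each library. The tools named, per the submitters' processing notes, are STAR, HTSeq, FastQC and DESeq2, without versions. Build, annotation and strand setting: not given in the sources used here. The table is named as normalized, but its values are unscaled whole numbers with unequal totals, so the deposited counts were tested as counts.

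Symbols matched 49326 of 49585 Ensembl IDs (259 did not) and, with positions, lengths and GC content, come from GENCODE M21 (GRCm38). Genes averaging 10 reads or more per library entered a two-sided test of Zac1 against EGFP, with TMM scaling and glmQLFTest of edgeR 4.0.16 in R 4.3.3 (prior count 0.125), with Benjamini-Hochberg adjustment over 12130 genes. SE is the log2 fold change divided by the square root of F, and 95% intervals use the fit's degrees of freedom. CPM use TMM-scaled totals. Ratios of low counts have Clopper-Pearson intervals, which cover counting error only. For Slco1a5, 3 counts over the group stood in for 0 reads, and the reads of the other group were taken as exact. Replicate pairs differed by more than sampling noise (chi-square per degree of freedom 2.31 to 8.98). A single simulation of the Zac1 against EGFP comparison had 12130 genes, 200 of them changed, with the spread that the fit had estimated. The fit recovered 76.1% of 1.5-fold, 88.1% of 2-fold and 100% of 4-fold changes, with 11 false calls among 187. These shares are over genes of all levels and do not describe genes with few reads.

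The genes and lists were chosen with earlier results of these data known. Named were Slco1a6, every transporter past the test, per family the 3 of smallest p among those not past it and the 3 of highest level per length, genes at or near 0 reads, and of each related list those past the test or the 1 of smallest p. Other genes named were chosen after their values were seen. A few genes that this rule names are not reported here, in text or figures, but stay in all counts and medians. Alternatives were filters, scalings, variance settings, DESeq2 1.42.0, limma 3.58.1, voom weights, GC offsets and leaving out libraries.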

Additional observations from a re-analysis of the deposited data

How the results depend on the processing

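The signs of Slco1a6, Abcc2 and Abcb1b held under all alternatives run, and all 3 calls held with the 4 other scalings, robust variance, limma on log2(CPM + 1), voom weights and GC offsets. No transporter call reversed. Transporters called higher (1 with all libraries) numbered 2 with no count filter, 0 among genes averaging at least 50 reads, 0 with DESeq2, 3 with voom weights, 3 without EGFP 1 and Zac1 4 together, and 0 to 1 with 1 library left out. Those called lower (2) numbered 4 with no filter, 1 with no dispersion trend, 6 with voom weights, 4 without EGFP 1 and Zac1 4, and 0 to 4 with 1 library left out: 0 without EGFP 3 or Zac1 5, and 4 without Zac1 4. Voom weights also called Slc22a5 and Abcb9 as higher and Slc22a14, Abca8a, Abca8b and Abcc5 as lower. The fits with no filter and without both libraries pooled the spread of nearly all genes (prior degrees of freedom infinite and 1560, against 10), so their smaller p-values are not firmer.

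Over all genes, 378 were higher and 81 lower. These counts were 731 and 248 with no filter, 190 and 51 among genes averaging at least 50 reads, 797 and 500 with voom weights, 853 and 608 without EGFP 1 and Zac1 4, and 187 to 584 and 19 to 379 with 1 library left out. The median of the tested transporters (-0.06) was -0.05 with upper-quartile scaling (-0.0481), -0.05 with totals without Plagl1 (-0.0477), -0.03 without EGFP 1 and Zac1 4 (-0.0348), and -0.0837 to -0.0456 with 1 library left out. Slco1a6 ran from -0.97 to -0.76 with 1 library left out, and its calls lost then have adjusted p of 0.0705 and 0.107. Calls in the other carriers (0) were 1 with no filter, 1 with voom weights, 2 without EGFP 1 and Zac1 4, and 0 to 1 with 1 library left out. Calls in the regulators (1) were 2 with no filter, 4 with voom weights, 2 with GC offsets, 2 without both libraries, and 0 to 2 with 1 left out. Calls in the partners (0) were 1, 2 and 2 with no filter, voom weights and without both libraries, and 0 to 2 with 1 left out. Calls in bile acid synthesis (1) were 2 without both libraries. The cause of these shifts was not tested. No paired analysis was possible because the groups share no replicate number. Leaving out 1 library moved the adjusted p across the threshold for Slc22a14 and Abca8a, with 12 to 54 reads per library, and also for the better covered Abca8b, Abcc5 and Abcc2. Abcb9 fell below the count minimum in 2 of the 6 fits with 1 library left out and Slc22a27 in 1.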
